A study of Sorghum bicolor with 12 samples.

Results

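The drought response of leaves of the sorghum (Sorghum bicolor) cultivar Sanchisan (SCS) was described across all expressed genes. The members were the 6 SCS libraries of the 12 in the series, 3 from plants labelled as drought-treated and 3 from control plants with a normal water supply. The other 6 libraries were leaves of the cultivar Jinliang 5 (JL), 3 under drought and 3 with normal water. They served as a second cultivar, and the main fit shared its filter, scaling and estimate of spread over both cultivars. Total RNA had been made into strand-specific libraries and sequenced on an Illumina NovaSeq instrument. Neither cultivar carries a transgene or mutation by its label. The labels give no length or depth of the drought, no leaf age and no number of plants per library, so the spread behind each p-value is that among libraries and may be technical.

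Sorghum is a C4 grass, in which mesophyll cells fix carbon dioxide first and hand it to the Calvin cycle in bundle sheath cells. When a leaf loses water, the hormone abscisic acid (ABA) accumulates and binds PYL receptors, which block protein phosphatases of the 2C family and so release SnRK2 kinases. These kinases switch on bZIP and other transcription factors, and stomata close. Drying leaves also make protective proteins of the late embryogenesis abundant (LEA) family, small heat shock proteins and soluble sugars such as raffinose.

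SCS drought libraries held 15.58, 15.70 and 16.07 M counts, and SCS control libraries 18.05, 18.36 and 17.38 M. Of 33897 genes, 20873 passed a filter on low counts. On the first principal component of the SCS libraries, which held 59.3% of the variance, drought 1 and 2 scored 134 and 185, drought 3 scored 10.5 and the controls -108, -123 and -99.6. Drought 3 stood nearest to the controls. A check of the tissue found 12 tested mesophyll and 13 bundle sheath marker genes, whose summed share of counts was 1.15, 1.76 and 0.698% in drought and 6.32, 4.34 and 7.44% in control for mesophyll. For bundle sheath it was 0.690, 0.796 and 0.546% in drought and 1.03, 0.842 and 1.67% in control. The bundle sheath list takes NADP-malic enzyme genes by name, also copies with other roles. The mesophyll list likewise takes phosphoenolpyruvate carboxylase and carbonic anhydrase genes by name, among them a transcribed pseudogene (LOC110433918) that was called lower. By the calls defined below, 1 tested mesophyll marker rose and 3 fell, and 2 bundle sheath markers rose and 4 fell. In bulk leaf RNA, fewer cells of a type and less RNA per cell cannot be told apart. Meristem markers changed in 0 of 13 tested genes, and the single tested root marker, a Casparian strip protein gene, stayed at or below 0.682 CPM in every SCS library.

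In SCS drought, 854 genes rose, 4.09% of the 20873 tested, and 1130 fell, 5.41%, which together were 9.51%. Of the 1984 called genes, 1892 differed by 2-fold or more, and 365 rose and 343 fell by 8-fold or more. The median log2 fold change was 2.62 among genes that rose and -2.27 among those that fell, against -0.07 over all tested genes. With so wide a spread among libraries the test seldom calls small changes, so these sizes follow in part from the threshold. Calls are genes with a Benjamini-Hochberg adjusted p below 0.05 in edgeR's quasi-likelihood test, and levels are CPM, the counts scaled to a common library size, after TMM correction. Among the genes that rose, 41 had no count in any control library, and 23 of those that fell had none in any drought library. Libraries of the groups did not overlap for 3048 genes on the higher side (14.6%) and 4000 on the lower side (19.2%), and for 1972 of the 1984 called genes.

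The counts of calls moved with single libraries. Without drought 3 they were 1175 higher and 1292 lower, without control 3 they were 213 and 354, and without drought 1 they were 261 and 386. Without drought 2 the counts were 547 and 694, without control 1 they were 241 and 600, and without control 2 they were 320 and 768. In all, 172 genes were called higher (0.824%) and 316 lower (1.51%), together 2.34%, in the fit of all libraries and in each of the 6 fits without 1 library. Drought 3 was the lowest drought library for 624 of the 854 genes that rose (73.1%), and control 3 the highest control library for 912 of the 1130 that fell (80.7%). Genes named below were called in every one of the 6 fits unless another number of fits is given. "Without 1 library" refers to these fits, and medians are those of the log2 fold change over a list's tested members. A log2 fold change is given ± an approximate standard error (SE). This SE is the absolute log2 fold change divided by the square root of the F value of edgeR's quasi-likelihood test. It is not an SE that the fit returns, and it is unreliable for genes with few counts in a group. Genes taken as the largest changes of a list or of all genes had to have groups that did not overlap. Remarks below that such genes did not overlap follow from that choice. Counts of called list members are to be read against 4.09% higher and 5.41% lower over all tested genes.

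**Figure D1:**
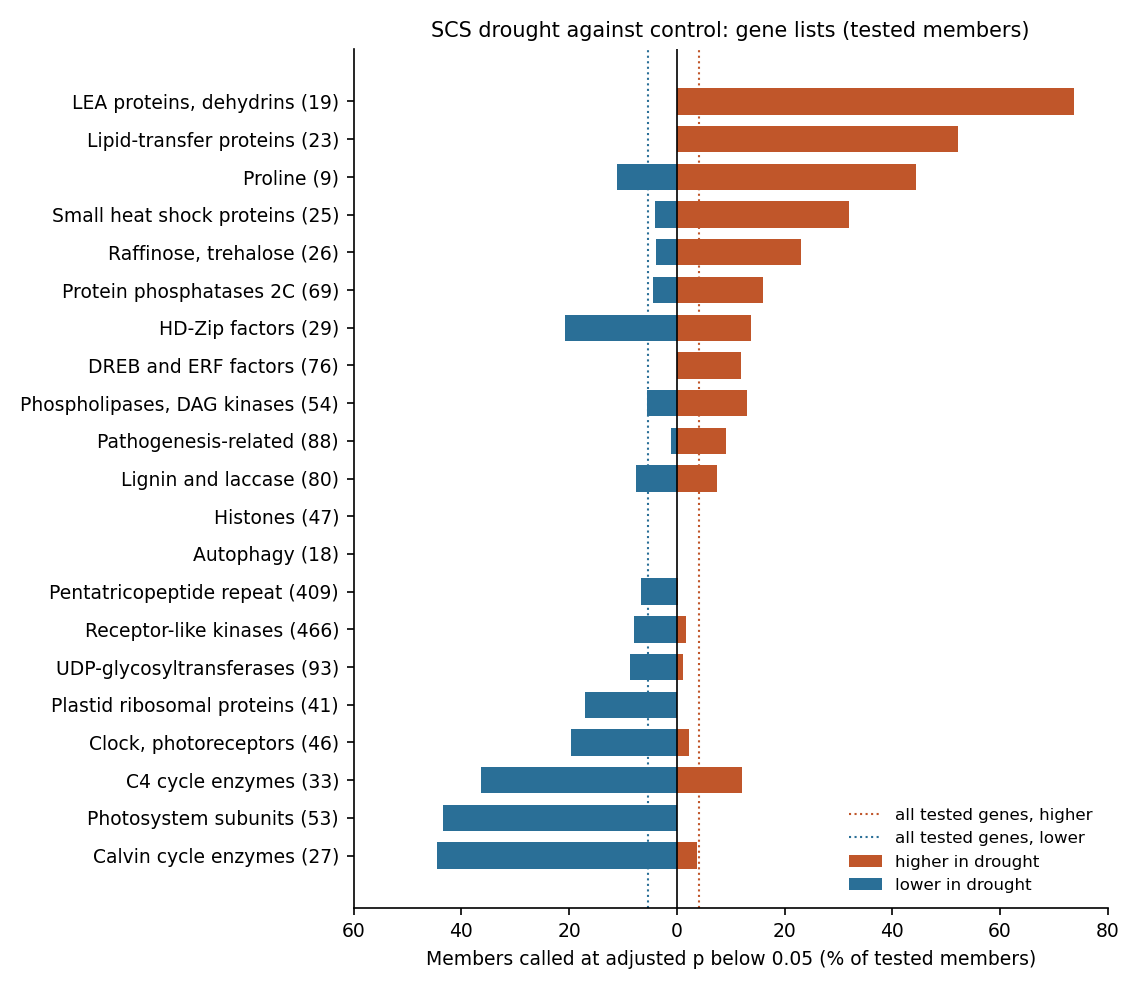
Share of each gene list's tested members (number in parentheses) that was called higher (bars to the right) or lower (bars to the left) in SCS drought than in control, with dotted lines at the shares over all tested genes, 4.09 and 5.41%. LEA and lipid-transfer protein lists reach farthest to the right, Calvin cycle and photosystem lists farthest to the left, and histone and autophagy lists have no bar.

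The genes of protective proteins came first by share of increases. Of the LEA and dehydrin list, hydrophilic proteins that shield membranes and enzymes in drying cells, 14 of 19 tested rose and 0 fell (9 to 15 rose and 0 fell without 1 library, median 9.41). Together these genes took 2.39, 1.68 and 0.791% of counts in the drought libraries and 0.0907, 0.0942 and 0.102% in the controls. Drought 1 held the most and drought 3 the least, and the controls lay within a narrow band. LEA protein 1 (LOC8055903, chromosome 1, 67521488 to 67523058) had 399, 142 and 197 CPM in drought, against 0.758, 1.13 and 0.739 CPM in control. LEA protein 1 had a log2 fold change of 8.12 ± 0.87 (adjusted p = 0.00267). The HVA22 gene (LOC8080659), of a family first described as ABA-induced in barley, had 38.7, 36.6 and 8.43 CPM in drought, against no count in control, and was at least 568-fold higher, adjusted p = 0.00474. Embryonic protein DC-8 (LOC8054663), an LEA-type protein known from carrot embryos, had 276, 156 and 46.5 CPM in drought, against 0, 0.0834 and 0.0568 CPM in control, a drought to control ratio of 3204 from 9048 drought and 3 control counts (exact 95% binomial interval 1096 to 15539.7), adjusted p = 0.00758, or 2076 without drought 1. For both genes all 3 drought libraries lay above all controls. The 11 kDa LEA gene (LOC8073244) had 202, 89.6 and 26.6 CPM in drought, against no count in control, and was at least 2114-fold higher, adjusted p = 0.0144, or 1193-fold without drought 1. Low-temperature-induced 65 kDa protein (LOC8065192), whose Arabidopsis counterpart responds to ABA, had 1519, 879 and 322 CPM in drought, against no count in control, and was at least 18336-fold higher, adjusted p = 0.00381. In both genes drought 1 was the highest library and drought 3 the lowest.

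Heat shock proteins keep unfolded proteins soluble and refold them. Of the small heat shock proteins 8 of 25 tested rose and 1 fell (1 to 9 rose and 0 to 1 fell without 1 library, median 1.85). A 19.0 kDa class II member (LOC8073756, chromosome 4, 7890058 to 7891171) had 22.2, 10.9 and 10.6 CPM in drought, against 0.713, 0.375 and 0.682 CPM in control. LOC8073756 had a log2 fold change of 4.61 ± 0.52 (adjusted p = 0.00321). Of the HSP70, HSP90 and HSP101 chaperones 4 of 24 tested rose and 0 fell (1 to 5 rose and 0 fell without 1 library, median 0.54). Heat shock 70 kDa protein 8 (LOC8085292) had 266, 326 and 71.4 CPM in drought, against 11.4, 6.295 and 9.49 CPM in control (log2 fold change 4.61 ± 0.66, adjusted p = 0.00468). Heat stress factors, which switch chaperone genes on, had 4 members that rose and 1 that fell of 21 tested (0 to 5 rose and 1 to 2 fell without 1 library, median 0.46). The factor gene A-2d (LOC8082148) fell to 2.52, 1.32 and 3.796 CPM in drought, against 75.6, 77.7 and 109 CPM in control (log2 fold change -5.10 ± 0.54, adjusted p = 0.00267), with no overlap.

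Genes with embryo or seed names had calls in both directions. Of the embryo and seed markers 4 of 8 tested rose and 0 fell (1 to 5 rose and 0 to 1 fell without 1 library, median 5.28). Their summed share was 0.0779, 0.0494 and 0.0173% of counts in the drought libraries and 0.00274, 0.00303 and 0.00197% in the controls. The wider list of oleosins, caleosins and seed storage proteins had 3 members that rose and 3 that fell of 15 tested (0 to 4 rose and 1 to 3 fell without 1 library, median 1.04), with 0 higher and 1 lower call in all 6 fits. In the same libraries the defining embryo regulator viviparous-1-like (LOC110432506) had 0, 0 and 8.92 CPM in drought, against 9.63, 7.38 and 9.04 CPM in control, and was not called (adjusted p = 0.627). That rests on drought 3, since it was called lower in the fit without that library, where it had no drought count left. Drought 1 and 2 had the most counts of the marker list, and the part of embryo cell types in this result was not tested. An oil body-associated protein gene (LOC8069824, chromosome 3, 61781918 to 61782894) had 92.02, 10.8 and 15.2 CPM in drought, against 0, 0.0417 and 0 CPM in control, a drought to control ratio of 2339 from 2202 drought and 1 control count (exact 95% binomial interval 419 to 92439), adjusted p = 0.00753, or 843 without drought 1. Its drought 1 library was far above the other two. Serpin-Z1 (LOC8079250), a protease inhibitor of the type stored in cereal grain, had 20.9, 42.8 and 1.24 CPM in drought, against no count in control, and was at least 441-fold higher, adjusted p = 0.0128, or 211-fold without drought 2 and 691-fold without drought 3. Neither gene was at 0 in a drought library. Oleosin 1 (LOC8059544), a coat protein of oil bodies, had 208, 97.02 and 46.1 CPM in drought, against 0.891, 2.71 and 1.99 CPM in control. Oleosin 1 had a log2 fold change of 5.97 ± 1.24 (adjusted p = 0.0171, or 5.26 without drought 1, called in 2 of the 6 fits). The vicilin-like storage protein gene LOC8081885 had 125, 109 and 5.96 CPM in drought, against 0.802, 0.2501 and 0 CPM in control (log2 fold change 7.77 ± 1.51, adjusted p = 0.0181, or 9.13 without control 1, called in 3 of the 6 fits). The ricin B-like lectin R40C1 (LOC8084563), a lectin known as ABA- and salt-responsive in rice, had 3200.2, 1939 and 816 CPM in drought, against 10.7, 5.71 and 7.28 CPM in control. LOC8084563 had a log2 fold change of 7.98 ± 0.79 (adjusted p = 0.00205). An F-box protein gene (LOC8060956), of the family that picks targets for degradation, had 80.8, 32.6 and 11.96 CPM in drought, against no count in control, and was at least 835-fold higher, adjusted p = 0.0162, or 461-fold without drought 1.

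The genes of ABA perception, relay and breakdown did not move as one. Of the ABA synthesis genes 1 of 6 tested rose and 1 fell (0 to 1 rose and 0 to 1 fell without 1 library, median 0.17). Of the receptor genes 1 of 5 tested rose and 1 fell (0 to 1 rose and 0 to 2 fell without 1 library, median -0.64). The most abundant receptor gene, PYL8 (LOC8078346, chromosome 4, 11405481 to 11409448), had 36.3, 37.6 and 50.01 CPM in drought, against 109, 69.8 and 135 CPM in control. LOC8078346 had a log2 fold change of -1.34 ± 0.34 (adjusted p = 0.034, called in 2 of the 6 fits). Among the protein phosphatases 2C 11 of 69 tested rose and 3 fell (1 to 11 rose and 0 to 5 fell without 1 library, median -0.06). Phosphatase gene LOC110430337 had 251, 228 and 105 CPM in drought, against 1.16, 0.667 and 1.76 CPM in control (log2 fold change 7.35 ± 1.20, adjusted p = 0.00744), and drought 3 was the lowest drought library. Among the SnRK2 kinases 1 of 11 tested rose and 1 fell (1 rose and 0 to 1 fell without 1 library, median 0.01). SAPK3 (LOC110431683), of a kinase family activated by osmotic stress in rice, had 103, 75.6 and 79.1 CPM in drought, against 4.95, 6.34 and 3.01 CPM in control. SAPK3 had a log2 fold change of 4.17 ± 0.65 (adjusted p = 0.00613). Abscisic acid 8'-hydroxylase 1 (LOC8073163), which starts the breakdown of the hormone, had 11.4, 24.3 and 18.6 CPM in drought, against 0.891, 0.584 and 1.08 CPM in control. Abscisic acid 8'-hydroxylase 1 had a log2 fold change of 4.40 ± 0.71 (adjusted p = 0.007). Its 3 drought libraries lay well above the 3 controls.

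RING, U-box and F-box proteins, which pick targets for ubiquitin, include members named for the ABA and drought pathway. Of this list 14 of 336 tested rose and 14 fell (4 to 21 rose and 4 to 18 fell without 1 library, median -0.10), shares near those over all tested genes. XERICO (LOC8055355, chromosome 7, 64932955 to 64934147), whose overexpression raises ABA in Arabidopsis, had 200.2, 149 and 87.6 CPM in drought, against 11.6, 8.797 and 11.03 CPM in control. XERICO had a log2 fold change of 3.79 ± 0.52 (adjusted p = 0.00449). RING proteins attach ubiquitin to chosen targets. DRIP2 (LOC8061164), whose Arabidopsis counterpart marks the drought factor DREB2A for degradation, had 16.5, 20.1 and 10.2 CPM in drought, against 3.65, 3.25 and 3.18 CPM in control. DRIP2 had a log2 fold change of 2.21 ± 0.40 (adjusted p = 0.01). RHG1A (LOC8063929) went the other way, with 54.1, 36.2 and 65.1 CPM in drought, against 189, 129.9 and 280.3 CPM in control (log2 fold change -1.95 ± 0.35, adjusted p = 0.01).

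Calcium carries the drought signal through CBL sensors, the CIPK kinases they bind, calmodulin-like proteins and calcium-dependent kinases. Of this list 4 of 94 tested rose and 3 fell (2 to 6 rose and 2 to 4 fell without 1 library, median -0.15). These shares, 4.26 and 3.19%, were near or below the 4.09 and 5.41% over all tested genes. CIPK15 (LOC8067611, chromosome 5, 1100635 to 1103512) had 178, 97.5 and 152 CPM in drought, against 9.36, 11.5 and 13.4 CPM in control (log2 fold change 3.64 ± 0.56, adjusted p = 0.0059). The calmodulin-like gene CML16 (LOC8061350) had 61.3, 164 and 121 CPM in drought, against 9.403, 16.2 and 7.96 CPM in control (log2 fold change 3.37 ± 0.58, adjusted p = 0.00861). Both were higher in every drought library than in any control. The sensor gene CBL7 (LOC8081639) was lower, with 2.57, 2.48 and 2.52 CPM in drought, against 16.4, 13.4 and 27.97 CPM in control (log2 fold change -2.93 ± 0.34, adjusted p = 0.00321). Calcium-dependent protein kinase 28 (LOC8076280) had 47.8, 31.4 and 41.98 CPM in drought, against 97.5, 84.9 and 148 CPM in control (log2 fold change -1.45 ± 0.26, adjusted p = 0.00978). MAP kinase genes had 4 members that rose (10%) and 2 that fell (5%) of 40 tested (0 to 5 rose and 0 to 3 fell without 1 library, median 0.02). Phospholipases and diacylglycerol kinases, which make and remove lipid signals, had 7 members that rose and 3 that fell of 54 tested (0 to 7 rose and 0 to 3 fell without 1 library, median 0.07).

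Transcription factors were counted by family. Of the DREB and ERF factors, which include the activators of dehydration-responsive genes, 9 of 76 tested rose and 0 fell (0 to 11 rose and 0 fell without 1 library, median 1.01), and no member was called in all 6 fits. The most abundant of them, ethylene-responsive transcription factor 1 (LOC8065451, chromosome 10, 5791129 to 5794058), had 508, 359 and 377 CPM in drought, against 112, 73.9 and 129 CPM in control. LOC8065451 had a log2 fold change of 1.99 ± 0.49 (adjusted p = 0.0311, called in 1 of the 6 fits). Of the HD-Zip factors 4 of 29 tested rose and 6 fell (1 to 4 rose and 2 to 5 fell without 1 library, median 0.23). HOX24 (LOC8075156), a class I member known in rice as drought-induced, had 557, 613 and 288 CPM in drought, against 0.936, 0.876 and 1.42 CPM in control. HOX24 had a log2 fold change of 8.82 ± 1.54 (adjusted p = 0.00929). The members that fell included ROC factors, which act in the epidermis. ROC1 (LOC8071117) had 34.8, 25.4 and 21.1 CPM in drought, against 100.5, 129 and 219 CPM in control (log2 fold change -2.46 ± 0.43, adjusted p = 0.00929). ROC2 (LOC8066825) had 26.4, 25.9 and 30.1 CPM in drought, against 131, 75.5 and 112 CPM in control (log2 fold change -1.95 ± 0.27, adjusted p = 0.00449). Neither ROC gene overlapped between groups, as the rule that named both genes required.

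Of the bZIP factors 5 of 40 tested rose and 1 fell (1 to 5 rose and 0 to 2 fell without 1 library, median 0.13). G-box-binding factor 4 (LOC8062379, chromosome 3, 68401701 to 68405990) had 60.4, 67.5 and 43.7 CPM in drought, against 4.19, 4.71 and 1.02 CPM in control. G-box-binding factor 4 had a log2 fold change of 4.10 ± 0.76 (adjusted p = 0.0109). NAC and WRKY factors are families with many stress regulators. The NAC list had 1 member that rose and 1 that fell of 56 tested (1 to 4 rose and 0 to 3 fell without 1 library, median 0.02). The WRKY list had 1 member that rose and 0 that fell of 62 tested (0 to 1 rose and 0 to 3 fell without 1 library, median -0.58). Both the NAC and the WRKY list lay below the shares over all tested genes, 4.09% higher and 5.41% lower. NAC67 (LOC8057074) had 1051, 789.8 and 595 CPM in drought, against 118, 173 and 134 CPM in control (log2 fold change 2.52 ± 0.43, adjusted p = 0.0088). MYB factors had 4 members that rose and 2 that fell of 67 tested (0 to 4 rose and 1 to 3 fell without 1 library, median -0.03), with MYBS2 (LOC8055635), which acts on amylase promoters in rice, at 41.4, 60.9 and 93.8 CPM in drought, against 284, 266 and 453 CPM in control. LOC8055635 had a log2 fold change of -2.35 ± 0.36 (adjusted p = 0.00554). The bHLH list had 1 member that rose and 1 that fell of 68 tested (1 rose and 0 to 5 fell without 1 library, median -0.16). bHLH11 (LOC8066689) had 87.9, 62.98 and 69.6 CPM in drought, against 26.6, 23.5 and 30.1 CPM in control. LOC8066689 had a log2 fold change of 1.46 ± 0.24 (adjusted p = 0.00768). Nuclear factor Y subunits had 1 member that rose and 2 that fell of 19 tested (0 to 2 rose and 2 fell without 1 library, median 0.21). Subunit gene C-2-like (LOC110431645) fell to 1.18, 5.07 and 4.19 CPM in drought, against 136, 86.8 and 287 CPM in control (log2 fold change -5.61 ± 0.68, adjusted p = 0.00321, or -4.97 without control 3).

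**Figure D2:**
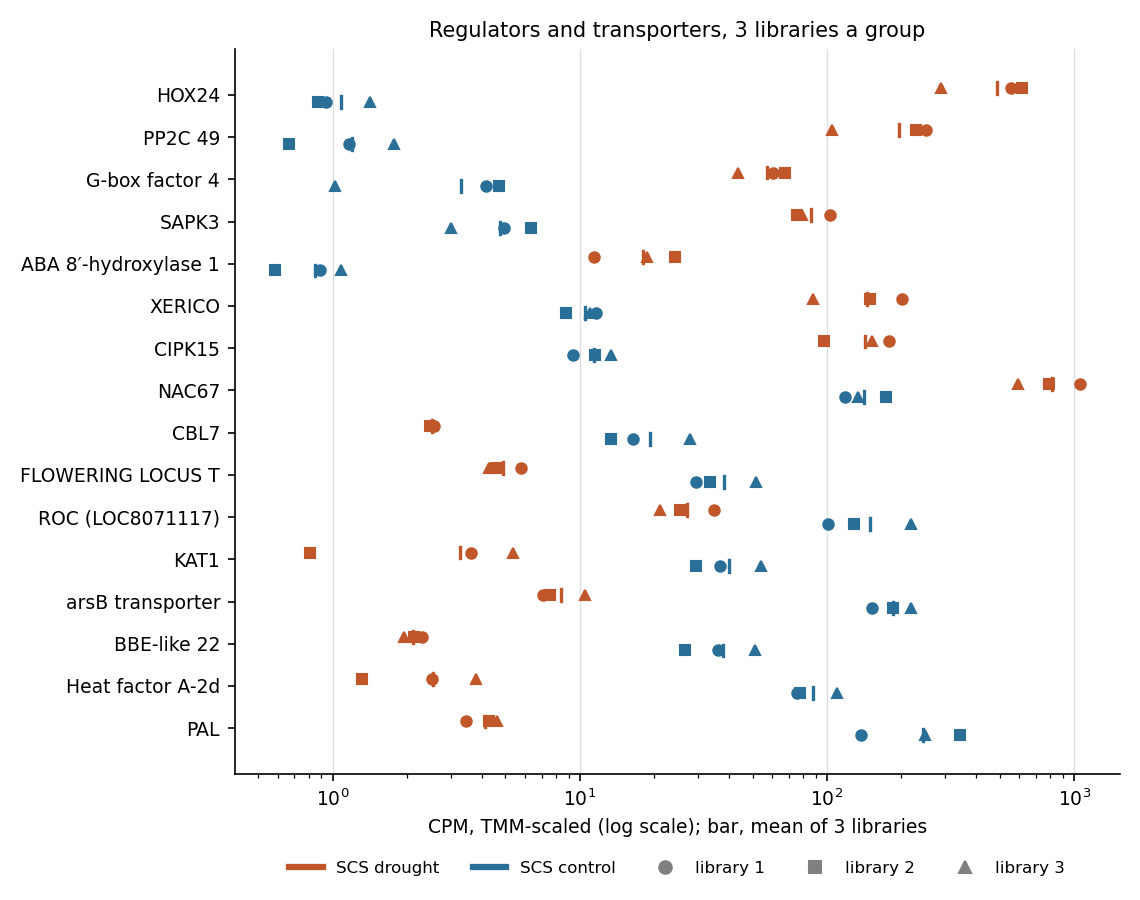
TMM-scaled CPM (log axis) of 16 regulators and transporters in the 3 SCS drought libraries (upper marks of each row) and the 3 SCS control libraries (lower marks), with the group mean as a bar. The first 8 genes lie to the right in drought and the last 8 to the left, and no gene's groups overlap. For genes that the rule took as the largest changes of a list or of all genes, this was required by the choice.

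In carbon fixation more genes fell than rose. Of the C4 cycle enzymes 4 of 33 tested rose and 12 fell (2 to 4 rose and 5 to 11 fell without 1 library, median -0.75). They took 1.84, 2.51 and 1.13% of counts in the drought libraries and 7.11, 4.96 and 8.54% in the controls. The Calvin cycle list had 1 member that rose and 12 that fell of 27 tested (0 to 1 rose and 8 to 11 fell without 1 library, median -1.65). These genes took 0.521, 0.592 and 0.493% of counts in the drought libraries and 2.15, 1.91 and 3.45% in the controls. Control 3 held the highest share of both lists, and the drought and control shares did not overlap. The mesophyll markers given above are genes of the C4 cycle, and the part of cell type shares in this result was not tested. Phosphoenolpyruvate carboxylase 3 (LOC8058886, chromosome 10, 47246959 to 47253459), the gene with the most counts in control, had 2797, 6962 and 1388 CPM in drought, against 21535, 13418 and 31807 CPM in control, and missed the threshold (log2 fold change -2.58 ± 0.73, adjusted p = 0.0505, or -3.41 without drought 2, the 1 fit of 6 that called it). Pyruvate, phosphate dikinase 1 (LOC110430571), which remakes its substrate, had 4754, 3983 and 2185 CPM in drought, against 21509, 14102 and 29614 CPM in control. Pyruvate, phosphate dikinase 1 had a log2 fold change of -2.58 ± 0.58 (adjusted p = 0.0227, called in 2 of the 6 fits). The gene of the protein that regulates this dikinase (LOC110432938) had 15.2, 5.07 and 28.6 CPM in drought, against 201, 174 and 372 CPM in control. LOC110432938 had a log2 fold change of -3.93 ± 0.64 (adjusted p = 0.00737, or -4.62 without drought 3). For these 3 genes all drought libraries lay below all controls. NADP-malate dehydrogenase 1 (LOC8057802) had 225, 281 and 177 CPM in drought, against 906, 1021 and 1607 CPM in control (log2 fold change -2.37 ± 0.43, adjusted p = 0.01). The phosphoenolpyruvate/phosphate translocator (LOC8078480) had 12.03, 13.02 and 16.5 CPM in drought, against 68.5, 79.05 and 79.4 CPM in control (log2 fold change -2.45 ± 0.41, adjusted p = 0.00766).

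Genes for copies of the same enzyme went in opposite directions. NADP-malic enzyme releases carbon dioxide in bundle sheath plastids of C4 leaves, and other copies serve other roles. The copy LOC8075558 (chromosome 3, 62488600 to 62493169) had 1272, 573 and 264 CPM in drought, against 0.446, 0.2501 and 0.227 CPM in control. LOC8075558 had a log2 fold change of 11.11 ± 1.27 (adjusted p = 0.00321, or 10.36 without drought 1). The plastid copy LOC8065884 had 9.85, 5.27 and 18.1 CPM in drought, against 99.4, 103 and 108 CPM in control (log2 fold change -3.22 ± 0.49, adjusted p = 0.00561). The plastid copy with the most counts, LOC8078737, had 2507, 3566 and 1444 CPM in drought, against 3835, 2573 and 6657 CPM in control, and was not called (log2 fold change -0.80 ± 0.49, adjusted p = 0.339). Phosphoenolpyruvate carboxylase 2 (LOC8065472) had 358, 239 and 151 CPM in drought, against 60.3, 42.4 and 59.1 CPM in control (log2 fold change 2.21 ± 0.40, adjusted p = 0.0103), the opposite sign to the carboxylase 3 gene. Whether the copies of 1 enzyme differ was not tested as a difference between genes.

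Copies of phosphoglycerate kinase, an enzyme shared by glycolysis and the Calvin cycle, also had opposite signs. The cytosolic kinase (LOC110431217, chromosome 10, 56433622 to 56437202) had 440.2, 428 and 121 CPM in drought, against 15.02, 11.2 and 9.49 CPM in control. LOC110431217 had a log2 fold change of 4.79 ± 0.50 (adjusted p = 0.00254). The plastid kinase (LOC8077052) had 119, 139 and 141 CPM in drought, against 1038, 1090.1 and 2168 CPM in control (log2 fold change -3.43 ± 0.55, adjusted p = 0.00708). All 3 drought libraries were higher than the controls for the cytosolic gene and lower for the plastid gene. The plastid aldolase gene LOC8073648, whose enzyme joins triose phosphates, had 13.9, 22.5 and 13.02 CPM in drought, against 781, 559.6 and 1519 CPM in control. LOC8073648 had a log2 fold change of -5.85 ± 0.52 (adjusted p = 0.00139). Subunit A of plastid glyceraldehyde-3-phosphate dehydrogenase (LOC110436299), which uses the product of the plastid kinase, had 154, 216 and 159 CPM in drought, against 1574, 1394 and 3658 CPM in control. LOC110436299 had a log2 fold change of -3.65 ± 0.58 (adjusted p = 0.00684, or -3.05 without control 3). All 3 of these plastid genes were lower in every drought library than in any control. Plastid fructose-1,6-bisphosphatase (LOC110430937) had 13.3, 36.3 and 13.02 CPM in drought, against 176, 230.2 and 469 CPM in control (log2 fold change -3.80 ± 0.63, adjusted p = 0.00753, or -4.47 without drought 2). The triose phosphate/phosphate translocator (LOC8078074), which exports the product from the plastid, had 478, 394 and 436 CPM in drought, against 2634, 1961 and 5096 CPM in control. LOC8078074 had a log2 fold change of -2.89 ± 0.52 (adjusted p = 0.00993).

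**Figure D3:**
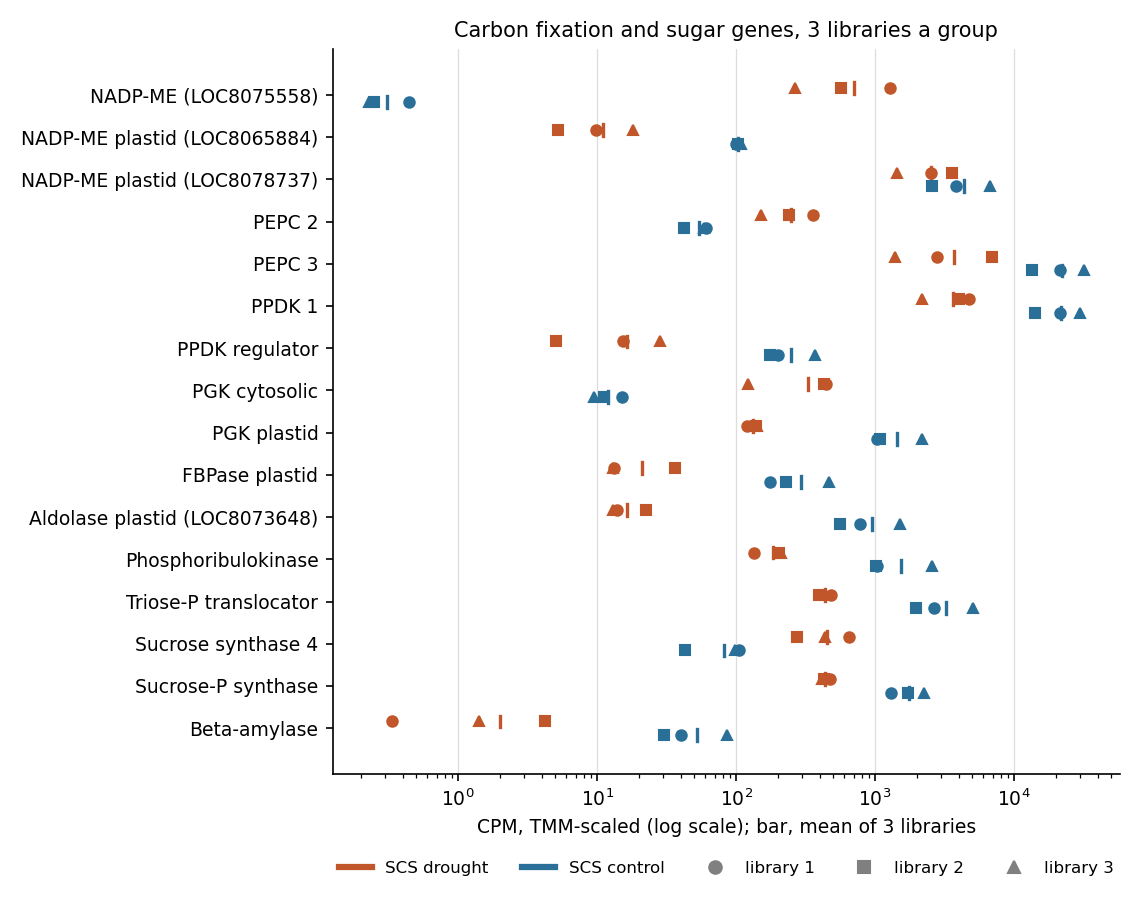
TMM-scaled CPM (log axis) of 16 genes of carbon fixation and sugar metabolism in the 3 SCS drought libraries (upper marks) and the 3 SCS control libraries (lower marks), with group means as bars. NADP-malic enzyme copy LOC8075558, PEPC 2, cytosolic PGK and sucrose synthase 4 lie to the right in drought, and the plastid copy LOC8078737 is the only gene whose groups overlap.

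Photosystem genes were counted apart from the antenna. Of the photosystem subunits 0 of 53 tested rose and 23 fell (0 rose and 8 to 18 fell without 1 library, median -1.89). Their share of counts was 1.100, 1.51 and 0.844% of counts in the drought libraries and 3.097, 2.68 and 5.02% in the controls. The gene of psbP-like protein 1 (LOC8085721, chromosome 1, 79123043 to 79125483), related to a subunit of the water-splitting complex, had 6.77, 9.93 and 11.3 CPM in drought, against 42.96, 45.2 and 81.2 CPM in control. LOC8085721 had a log2 fold change of -2.59 ± 0.47 (adjusted p = 0.01). An NDH subunit gene of lumenal location (LOC110431204), of the complex that cycles electrons round photosystem I, had 39.7, 30.7 and 46.7 CPM in drought, against 180.3, 239.6 and 451 CPM in control. LOC110431204 had a log2 fold change of -2.89 ± 0.48 (adjusted p = 0.00753). Antenna genes, which collect light for the photosystems, had 0 members that rose and 1 that fell of 14 tested (0 rose and 1 to 3 fell without 1 library, median -1.59). Their share was 0.774, 1.75 and 0.358% of counts in the drought libraries and 1.74, 0.943 and 3.18% in the controls. Drought 2 lay above control 1 and control 2 in this share. The called gene, an LHCII type 1 protein (LOC8082496), had 6.49, 11.2 and 27.9 CPM in drought, against 890.2, 362 and 2274 CPM in control. LOC8082496 had a log2 fold change of -6.27 ± 1.04 (adjusted p = 0.00758, or -7.05 without drought 3 and -5.34 without control 3). Glutamyl-tRNA reductase (LOC8079551), the first committed step towards chlorophyll, had 31.6, 99.4 and 36.1 CPM in drought, against 639.8, 633 and 1558 CPM in control. Glutamyl-tRNA reductase had a log2 fold change of -4.08 ± 0.74 (adjusted p = 0.0103, or -4.80 without drought 2 and -3.49 without control 3). STAY-GREEN LIKE (LOC8073690), of a family that takes magnesium out of chlorophyll, had 8.23, 4.26 and 6.49 CPM in drought, against 42.9, 63.5 and 94.7 CPM in control. STAY-GREEN LIKE had a log2 fold change of -3.40 ± 0.58 (adjusted p = 0.00859).

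Plastids translate their own genes with proteins made mostly from nuclear genes. Plastid ribosomal proteins had 0 members that rose and 7 that fell of 41 tested (0 rose and 2 to 4 fell without 1 library, median -1.50). Cytosolic ribosomal proteins had 3 members that rose and 0 that fell of 199 tested (0 to 7 rose and 0 to 1 fell without 1 library, median 0.15). Plastid ribosomal protein S21 (LOC8079435, chromosome 4, 5816965 to 5818963) had 29.7, 23.6 and 25.1 CPM in drought, against 117, 145 and 208 CPM in control. Plastid ribosomal protein S21 had a log2 fold change of -2.58 ± 0.39 (adjusted p = 0.00537). Plastid elongation factor Tu (LOC8056476), which brings tRNAs to that ribosome, had 194, 119 and 175 CPM in drought, against 1022, 789 and 1405 CPM in control. Plastid elongation factor Tu had a log2 fold change of -2.72 ± 0.37 (adjusted p = 0.00434). Of pentatricopeptide repeat proteins, which edit and stabilise organelle RNA, 1 of 409 tested rose and 27 fell (0 to 4 rose and 5 to 23 fell without 1 library, median -0.30). The share that fell lay near the 5.41% over all tested genes, and the share that rose lay below 4.09%. Of the members that fell, 4 were called in all 6 fits. The pentatricopeptide repeat gene LOC8083663 had 8.79, 9.37 and 9.36 CPM in drought, against 40.9, 46.8 and 64.2 CPM in control (log2 fold change -2.46 ± 0.30, adjusted p = 0.00321). Translation factor SUI1 (LOC110432939), which helps choose the start codon in the cytosol, went the other way and had 2097, 4052 and 1490.2 CPM in drought, against 222, 209.6 and 311 CPM in control. Translation factor SUI1 had a log2 fold change of 3.36 ± 0.44 (adjusted p = 0.00383). Of 61 tested genes of the plastid genome 0 rose and 8 fell (13.1%), 2 of them in all 6 fits.

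Sugar genes had calls in both directions. Raffinose family and trehalose genes had 6 members that rose and 1 that fell of 26 tested (3 to 5 rose and 0 to 2 fell without 1 library, median 1.46). These genes took 1.405, 2.02 and 0.945% of counts in the drought libraries and 0.194, 0.178 and 0.151% in the controls. The galactinol-sucrose galactosyltransferase gene LOC8078430 (chromosome 2, 7874433 to 7877967), a raffinose synthase by name and the gene with the most counts in drought, had 6186, 12075 and 2430.3 CPM in drought, against 168, 120.0 and 163 CPM in control. LOC8078430 had a log2 fold change of 5.52 ± 0.75 (adjusted p = 0.00426, or 4.84 without drought 2). Sucrose synthase 4 (LOC8082319), which cleaves sucrose, had 645, 274 and 439 CPM in drought, against 105, 42.5 and 98.6 CPM in control (log2 fold change 2.46 ± 0.43, adjusted p = 0.00929). Sucrose-phosphate synthase (LOC8079789), which makes it, had 472, 429.9 and 414 CPM in drought, against 1304, 1713 and 2247 CPM in control (log2 fold change -2.0001 ± 0.35, adjusted p = 0.00949). Starch breakdown genes had 2 members that rose and 3 that fell of 23 tested (0 to 2 rose and 2 to 3 fell without 1 library, median -0.54). Their summed share of counts was 0.454, 0.3598 and 0.355% of counts in the drought libraries and 0.164, 0.161 and 0.181% in the controls, higher in every drought library than in any control. A beta-amylase gene (LOC8084089), which cuts maltose from starch, had 0.336, 4.21 and 1.41 CPM in drought, against 40.1, 30.2 and 85.4 CPM in control. LOC8084089 had a log2 fold change of -4.70 ± 0.82 (adjusted p = 0.00906, or -5.86 without drought 2 and -4.11 without control 3). The phosphoglucan phosphatase LSF1 gene (LOC8070005) had 10.1, 14.2 and 17.5 CPM in drought, against 49.9, 52.2 and 73.8 CPM in control (log2 fold change -2.07 ± 0.26, adjusted p = 0.0037). Sugar transporters had 2 members that rose and 5 that fell of 48 tested (0 to 3 rose and 0 to 4 fell without 1 library, median 0.08).

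**Figure D4:**
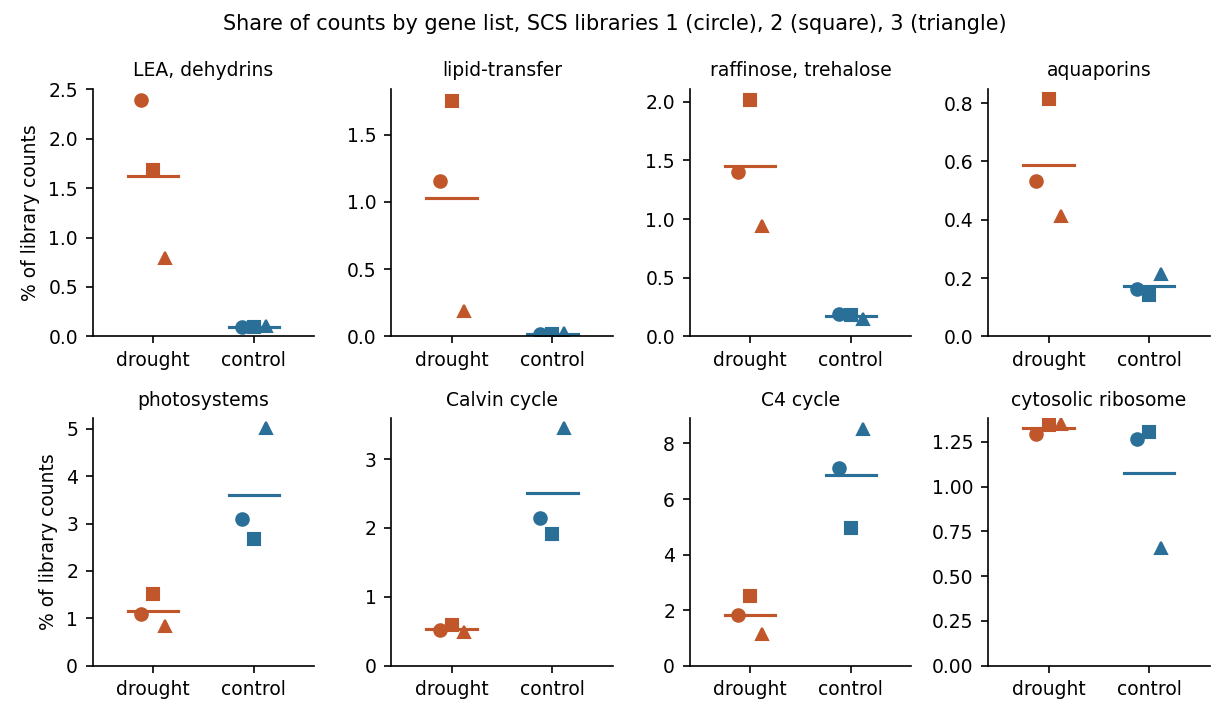
Share of all counts of a library (percent, axes start at 0) taken by 8 gene lists in SCS drought (left) and SCS control (right), with 1 mark a library and the mean as a line. Drought 3 is the lowest drought library in all panels but that of the cytosolic ribosome, and control 3 is highest for photosystems, Calvin cycle and C4 cycle.

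Proline is an amino acid that drying cells accumulate as an osmolyte. Of its genes 4 of 9 tested rose and 1 fell (3 to 4 rose and 1 fell without 1 library, median 2.22). The synthase gene LOC110430201 (chromosome 9, 51780110 to 51787205) had 664, 389 and 160.3 CPM in drought, against 30.97, 13.05 and 29.9 CPM in control. LOC110430201 had a log2 fold change of 4.04 ± 0.68 (adjusted p = 0.00817). Ornithine aminotransferase (LOC8062211), which feeds an alternative route, had 193, 152 and 189 CPM in drought, against 41.8, 31.02 and 41.9 CPM in control. Ornithine aminotransferase had a log2 fold change of 2.22 ± 0.28 (adjusted p = 0.0037). Delta-1-pyrroline-5-carboxylate dehydrogenase 12A1 (LOC8068986), an enzyme of proline breakdown, had 143, 123 and 117 CPM in drought, against 19.9, 13.6 and 25.2 CPM in control. LOC8068986 had a log2 fold change of 2.71 ± 0.51 (adjusted p = 0.0114). Proline transporter 1 (LOC8078705) had 0.952, 0.7600 and 2.96 CPM in drought, against 72.2, 44.7 and 143 CPM in control (log2 fold change -5.78 ± 0.70, adjusted p = 0.00321, or -6.65 without drought 3 and -5.18 without control 3).

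Transport genes of water, ions and nutrients were counted by list. Aquaporins, the water channels, had 3 members that rose and 0 that fell of 24 tested (0 to 4 rose and 0 fell without 1 library, median -0.32). Their share of counts was 0.535, 0.815 and 0.411% of counts in the drought libraries and 0.162, 0.142 and 0.214% in the controls. The member with the most counts was PIP1-2 (LOC8076062, chromosome 4, 63023028 to 63027207), a plasma membrane channel, with 2272, 3140.2 and 690.1 CPM in drought, against 176, 151 and 339.6 CPM in control. LOC8076062 had a log2 fold change of 3.19 ± 0.66 (adjusted p = 0.0169, called in 3 of the 6 fits). Potassium and sodium transport genes had 3 members that rose and 3 that fell of 44 tested (1 to 3 rose and 2 to 3 fell without 1 library, median -0.20). KAT1 (LOC8085586), the guard cell channel that lets potassium in when stomata open, had 3.64, 0.811 and 5.34 CPM in drought, against 36.9, 29.6 and 53.9 CPM in control. KAT1 had a log2 fold change of -3.62 ± 0.66 (adjusted p = 0.0106). A potassium channel beta subunit gene (LOC8055310) had 62.3, 40.1 and 36.7 CPM in drought, against 2.99, 3.42 and 3.695 CPM in control (log2 fold change 3.78 ± 0.62, adjusted p = 0.00753). The other tested guard cell markers, SLAC1-type anion channel, FAMA, SCREAM2 and KAT4, were not called. All 18 genes of the list, KAT1 among them, took 0.00374, 0.00394 and 0.004698% of counts in the drought libraries and 0.00763, 0.00908 and 0.00903% in the controls. The SLAC1-type gene had 23.7, 21.9 and 19.2 CPM in drought, against 17.0, 26.3 and 24.4 CPM in control. Of the 5 tested genes 2 did not overlap, on the lower side, against 19.2% over all tested genes, and the median was -0.81.

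Phosphate transporters had 0 members that rose and 2 that fell of 9 tested (0 rose and 2 fell without 1 library, median -0.90). The plastid transporter 2-1 (LOC8055817, chromosome 4, 55069536 to 55072819) had 8.004, 6.94 and 5.91 CPM in drought, against 37.9, 30.2 and 114 CPM in control. LOC8055817 had a log2 fold change of -3.12 ± 0.54 (adjusted p = 0.00878, or -2.27 without control 3). Nitrate and peptide transporters had 2 members that rose and 4 that fell of 62 tested (1 to 4 rose and 2 to 4 fell without 1 library, median -0.20). NRT1/PTR family gene 8.3 (LOC8086280) had 30.95, 30.4 and 31.8 CPM in drought, against 9.23, 4.21 and 4.49 CPM in control (log2 fold change 2.38 ± 0.41, adjusted p = 0.00906), whereas the family 8.1-like gene LOC110433327 had 0.05597, 0 and 0.0441 CPM in drought, against 43.5, 15.3 and 34.5 CPM in control, a control to drought ratio of 917 from 2 drought and 1949 control counts (exact 95% binomial interval 254 to 7579.8), adjusted p = 0.00139. A putative transporter named arsB after a bacterial arsenite pump (LOC8071382) had the smallest adjusted p of the rule's named genes, with 7.11, 7.55 and 10.5 CPM in drought, against 152, 185 and 219.5 CPM in control. LOC8071382 had a log2 fold change of -4.47 ± 0.30 (adjusted p = 0.000451). Amino acid permease 7 (LOC8058688) had 545, 209.7 and 222 CPM in drought, against 56.1, 55.5 and 46.3 CPM in control (log2 fold change 2.63 ± 0.43, adjusted p = 0.00753, or 2.04 without drought 1). The ABC transporter MRP4 (LOC8085502) had 202, 71.03 and 286 CPM in drought, against 24.9, 25.9 and 24.7 CPM in control (log2 fold change 2.89 ± 0.51, adjusted p = 0.00961).

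Phenylpropanoid genes, which supply lignin and phenolics, had 6 members that rose and 6 that fell of 80 tested (3 to 6 rose and 4 to 5 fell without 1 library, median -0.06). Phenylalanine ammonia-lyase gene LOC8066170 (chromosome 4, 57099264 to 57101775), whose enzyme opens the pathway, had 3.47, 4.31 and 4.63 CPM in drought, against 137, 344 and 250.1 CPM in control. LOC8066170 had a log2 fold change of -5.88 ± 0.74 (adjusted p = 0.0037). It was lower in every drought library than in any control. Laccase-10 (LOC8081510), of the enzymes that link lignin units, had 39.97, 208 and 6.58 CPM in drought, against 0.0446, 0 and 0.171 CPM in control. Laccase-10 had a log2 fold change of 10.19 ± 1.79 (adjusted p = 0.00956, or 8.30 without drought 2 and 11.53 without control 3). Dirigent protein 10 (LOC8080616), of a family that steers such coupling, had 79.5, 90.4 and 33.9 CPM in drought, against 0.134, 0 and 0 CPM in control, a drought to control ratio of 1407 from 3972 drought and 3 control counts (exact 95% binomial interval 481 to 6823), adjusted p = 0.00321. Berberine bridge enzyme-like 22 (LOC8061940) had 2.29, 2.13 and 1.94 CPM in drought, against 36.2, 26.5 and 51.1 CPM in control (log2 fold change -4.16 ± 0.31, adjusted p = 0.000652). None of these 4 genes overlapped between groups. For those that the rule took as largest changes, this follows from the choice. UDP-glycosyltransferases, which attach sugars to hormones and phenolics, had 1 member that rose and 8 that fell of 93 tested (0 to 4 rose and 3 to 9 fell without 1 library, median -0.59). Gene 73C7 (LOC8082845) had 1.34, 1.98 and 1.68 CPM in drought, against 18.05, 18.4 and 29.9 CPM in control (log2 fold change -3.72 ± 0.52, adjusted p = 0.00449). Lipid-transfer proteins had 12 members that rose and 0 that fell of 23 tested (2 to 11 rose and 0 fell without 1 library, median 4.39). They took 1.16, 1.75 and 0.188% of counts in the drought libraries and 0.0191, 0.0188 and 0.0219% in the controls. The gene LOC8074864 had 646, 587 and 81.9 CPM in drought, against 17.2, 10.8 and 23.4 CPM in control (log2 fold change 4.68 ± 0.87, adjusted p = 0.0114). Wax and cutin synthesis genes had 1 member that rose and 1 that fell of 48 tested (0 to 1 rose and 1 to 2 fell without 1 library, median -0.06). 3-ketoacyl-CoA synthase 5 (LOC8077689), which lengthens fatty acids for wax, had 11.1, 6.08 and 11.9 CPM in drought, against 57.98, 52.9 and 68.8 CPM in control. LOC8077689 had a log2 fold change of -2.63 ± 0.42 (adjusted p = 0.00688).

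Receptor-like kinases sense peptides, wall fragments and microbes at the cell surface. Of these kinases 8 of 466 tested rose and 37 fell (2 to 10 rose and 10 to 51 fell without 1 library, median -0.71). The shares were 1.72 and 7.94%, against 4.09 and 5.41% over all tested genes. PERK4 (LOC8084167, chromosome 1, 5458363 to 5461678), a proline-rich kinase, had 10.4, 4.97 and 4.68 CPM in drought, against 112, 190.2 and 275 CPM in control. PERK4 had a log2 fold change of -4.85 ± 0.65 (adjusted p = 0.00421). Wall-associated receptor kinase 2 (LOC8076337) had 0.168, 1.01 and 0.5297 CPM in drought, against 11.3, 22.8 and 5.57 CPM in control (log2 fold change -4.51 ± 0.84, adjusted p = 0.0113, or -5.19 without drought 2 and -3.87 without control 2). Both were lower in every drought library. A cysteine-rich kinase gene LOC8068176 was on the other side with 262, 173 and 96.9 CPM in drought, against 1.11, 1.83 and 0.569 CPM in control. LOC8068176 had a log2 fold change of 7.22 ± 1.13 (adjusted p = 0.00623). Disease resistance NB-LRR genes had 4 members that rose and 6 that fell of 144 tested (0 to 6 rose and 2 to 17 fell without 1 library, median -0.60). Pathogenesis-related proteins had 8 members that rose and 1 that fell of 88 tested (1 to 8 rose and 1 to 3 fell without 1 library, median -0.08). Glucan endo-1,3-beta-glucosidase 1 (LOC8080486), which cuts callose and fungal walls, had 683, 215 and 285 CPM in drought, against 7.18, 5.38 and 3.24 CPM in control. Glucan endo-1,3-beta-glucosidase 1 had a log2 fold change of 6.22 ± 0.89 (adjusted p = 0.00465, or 5.57 without drought 1). Thaumatin-like protein 1b (LOC8078857) had 0.2799, 5.17 and 0.221 CPM in drought, against 113, 66.9 and 197 CPM in control (log2 fold change -6.05 ± 1.19, adjusted p = 0.0138, or -8.94 without drought 2). Lipoxygenase 6 (LOC8065259), named as a 9S enzyme that oxidises linoleate, had 1.01, 2.28 and 0.883 CPM in drought, against 41.4, 21.2 and 66.1 CPM in control. Lipoxygenase 6 had a log2 fold change of -4.94 ± 0.68 (adjusted p = 0.00449).

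Growth hormones were counted by list, to be read against 4.09% higher and 5.41% lower over all tested genes. Auxin response genes had 5 members that rose and 5 that fell of 72 tested (0 to 6 rose and 0 to 6 fell without 1 library, median -0.03). Cytokinin and brassinosteroid genes had 2 members that rose and 4 that fell of 38 tested (1 to 3 rose and 1 to 4 fell without 1 library, median -1.001). Gibberellin genes had 1 member that rose and 1 that fell of 19 tested (0 to 1 rose and 0 to 2 fell without 1 library, median 0.17). LOGL10 (LOC8067410, chromosome 1, 20251162 to 20256740), which frees active cytokinin from its nucleotide, had 11.3, 4.46 and 18.5 CPM in drought, against 95.5, 77.2 and 175 CPM in control. LOGL10 had a log2 fold change of -3.34 ± 0.60 (adjusted p = 0.01). The response regulator ORR26 (LOC8056131) had 30.5, 46.97 and 29.8 CPM in drought, against 9.403, 9.01 and 13.02 CPM in control (log2 fold change 1.77 ± 0.32, adjusted p = 0.0103). All 3 drought libraries lay below the controls for LOGL10 and above them for ORR26. Clock and photoreceptor genes had 1 member that rose and 9 that fell of 46 tested (0 to 1 rose and 1 to 6 fell without 1 library, median -0.42). FLOWERING LOCUS T (LOC8061952), named after the Arabidopsis florigen gene, had 5.77, 4.56 and 4.28 CPM in drought, against 29.5, 33.6 and 51.6 CPM in control. FLOWERING LOCUS T had a log2 fold change of -2.97 ± 0.44 (adjusted p = 0.00521). Phytochrome a (LOC8059991), a red light receptor, had 2046, 5389 and 458 CPM in drought, against 360.1, 233 and 392 CPM in control (log2 fold change 3.00 ± 0.83, adjusted p = 0.0469, or 1.93 without drought 2, called in 1 of the 6 fits), with drought 2 far above the rest.

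Genes with deep decreases included regulators and a receptor. RADIALIS proteins are small MYB-like regulators, known from flower symmetry in snapdragon. A RADIALIS-like 3 gene (LOC8064723, chromosome 9, 58029467 to 58030577) had 0.8396, 0.203 and 0.574 CPM in drought, against 84.1, 69.5 and 159.9 CPM in control. LOC8064723 had a log2 fold change of -7.59 ± 0.67 (adjusted p = 0.00139). A second gene of that name, LOC8073158, had 0.616, 0.253 and 0.0883 CPM in drought, against 13.7, 25.6 and 40.2 CPM in control (log2 fold change -6.38 ± 0.84, adjusted p = 0.00383, or -7.24 without drought 1), and every drought library of both was below 1 CPM. ALFIN-LIKE 7 (LOC8075860), a PHD finger protein of a family that reads histone marks, had 0.448, 0.203 and 0.795 CPM in drought, against 58.6, 93.9 and 269 CPM in control. ALFIN-LIKE 7 had a log2 fold change of -8.15 ± 1.36 (adjusted p = 0.00768, or -7.24 without control 3). Phytosulfokine receptor 1 (LOC8085201), which senses a growth-promoting peptide, had 0.448, 0.0507 and 0.0883 CPM in drought, against 11.4, 11.1 and 25.4 CPM in control. Phytosulfokine receptor 1 had a log2 fold change of -6.34 ± 1.03 (adjusted p = 0.00739, or -7.68 without drought 1). RETICULATA-RELATED 4 (LOC8074089), of a plastid family named for netted leaves in Arabidopsis, had 1.01, 7.498 and 7.64 CPM in drought, against 422, 363 and 1184 CPM in control. RETICULATA-RELATED 4 had a log2 fold change of -6.93 ± 0.87 (adjusted p = 0.00369, or -6.15 without control 3). In these 5 genes no drought library reached a control library. Where the rule took them as largest changes, this was required by the choice.

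The putative PAP-specific phosphatase (LOC8069528, chromosome 9, 4831924 to 4837118), of a family that clears the stress signal PAP in Arabidopsis, had 3.303, 0.203 and 2.47 CPM in drought, against 369, 206 and 747 CPM in control. LOC8069528 had a log2 fold change of -7.79 ± 1.28 (adjusted p = 0.00751, or -7.15 without control 3). BURP domain-containing protein 3 (LOC8070112) had 0, 1.42 and 0.883 CPM in drought, against 176, 26.97 and 299 CPM in control (log2 fold change -7.74 ± 1.41, adjusted p = 0.0104, or -8.49 without drought 2 and -7.00 without control 3), with a control library well below the other two. The acetylajmalan esterase-like gene LOC110431387 had 1.18, 1.93 and 0.0441 CPM in drought, against 110.9, 76.4 and 227 CPM in control (log2 fold change -7.04 ± 1.01, adjusted p = 0.0047, or -7.85 without drought 2), and its drought 3 library was the lowest of all. A probable polyamine transporter (LOC8080485) was among the 10 genes with the smallest adjusted p and had 0.336, 0.203 and 0.353 CPM in drought, against 5.93, 8.63 and 17.6 CPM in control. LOC8080485 had a log2 fold change of -5.13 ± 0.51 (adjusted p = 0.00205, or -4.55 without control 3). Cytochromes P450, oxidases of hormone and defence compounds, had 6 members that rose and 4 that fell of 108 tested (0 to 8 rose and 1 to 4 fell without 1 library, median -0.30).

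Other metabolic and growth lists had 0 to 6 called members in either direction. Photorespiration, which recovers carbon lost to oxygen, had 3 members that rose and 4 that fell of 21 tested (0 to 1 rose and 0 to 6 fell without 1 library, median -0.70). Chlorophyll synthesis had 0 members that rose and 3 that fell of 30 tested (0 rose and 1 to 3 fell without 1 library, median -0.91). Chlorophyll breakdown had 0 members that rose and 2 that fell of 12 tested (0 to 1 rose and 1 to 2 fell without 1 library, median 0.24). Cysteine and aspartic proteases had 5 members that rose and 6 that fell of 66 tested (0 to 6 rose and 2 to 5 fell without 1 library, median 0.11). Cyclins, kinesins and replication genes had 1 member that rose and 4 that fell of 70 tested (0 to 2 rose and 0 to 5 fell without 1 library, median -0.19). The most abundant of them, kinesin KIN-14L (LOC8070779, chromosome 10, 7249221 to 7265517), had 69.7, 88.4 and 63.03 CPM in drought, against 200.2, 144 and 317 CPM in control. LOC8070779 had a log2 fold change of -1.58 ± 0.32 (adjusted p = 0.0163, called in 4 of the 6 fits). Xyloglucan and pectin enzymes, which loosen the wall, had 4 members that rose and 1 that fell of 69 tested (0 to 4 rose and 0 fell without 1 library, median 0.23). Expansins had 2 members that rose and 2 that fell of 20 tested (0 to 1 rose and 0 to 1 fell without 1 library, median -0.29). DnaJ chaperones, partners of HSP70, had 5 members that rose and 1 that fell of 59 tested (0 to 7 rose and 0 to 1 fell without 1 library, median 0.23). Mitochondrial respiration genes had 4 members that rose and 1 that fell of 58 tested (0 to 5 rose and 1 fell without 1 library, median 0.31). Uncoupling protein 5 (LOC8056910) had 27.4, 55.2 and 30.1 CPM in drought, against 108, 164 and 211 CPM in control (log2 fold change -2.10 ± 0.37, adjusted p = 0.00929). Branched-chain amino acid breakdown had 2 members that rose and 0 that fell of 21 tested (0 to 1 rose and 0 to 1 fell without 1 library, median 0.61). Ethylene genes had 2 members that rose and 0 that fell of 20 tested (0 to 3 rose and 0 to 1 fell without 1 library, median 0.23). Jasmonate genes had 1 member that rose and 2 that fell of 38 tested (0 to 1 rose and 1 to 3 fell without 1 library, median -0.22). Flavonoid synthesis genes had 1 member that rose and 2 that fell of 60 tested (0 to 2 rose and 1 to 5 fell without 1 library, median -0.53).

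Histone, autophagy and betaine and polyamine lists had no call in the fit of all libraries. Histones had 0 members that rose and 0 that fell of 47 tested (0 to 1 rose and 0 to 4 fell without 1 library, median -0.40). Autophagy genes had 0 members that rose and 0 that fell of 18 tested (0 rose and 0 to 1 fell without 1 library, median -0.18). Betaine and polyamine synthesis genes had 0 members that rose and 0 that fell of 20 tested (0 rose and 0 fell without 1 library, median 0.14). S-adenosylmethionine decarboxylase (LOC8075884, chromosome 6, 49857175 to 49860246), an enzyme of polyamine synthesis and among the 12 most counted genes of both groups, had 3984, 4063 and 4503 CPM in drought, against 2634, 2830.3 and 2995 CPM in control, and was not called (log2 fold change 0.57 ± 0.30, adjusted p = 0.254). Superoxide, peroxide and ascorbate enzymes had 2 members that rose and 2 that fell of 39 tested (0 to 4 rose and 1 to 2 fell without 1 library, median 0.14). Peroxiredoxin-2E-2 (LOC8079458), a plastid peroxidase, had 2.41, 2.28 and 3.13 CPM in drought, against 31.3, 27.6 and 62.9 CPM in control (log2 fold change -3.96 ± 0.70, adjusted p = 0.00956). Glutathione S-transferases had 1 member that rose and 3 that fell of 56 tested (0 to 5 rose and 1 to 4 fell without 1 library, median -0.14). Class III peroxidases had 3 members that rose and 2 that fell of 36 tested (0 to 2 rose and 0 to 2 fell without 1 library, median 0.33).

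By gene class, 824 of 19078 tested protein-coding genes rose (4.32%) and 1051 fell (5.51%). Among 938 tested long noncoding RNA genes 13 rose (1.39%) and 31 fell (3.30%), and among 488 loci that the authors assembled outside the reference 10 rose (2.05%) and 33 fell (6.76%). By chromosome the share that rose lay between 3.29% on chromosome 2 and 4.83% on chromosome 9, and the share that fell between 4.64% on chromosome 5 and 6.28% on chromosome 8.

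The change in SCS was set against that in JL leaves by the difference of the log2 fold changes, SCS minus JL. It was called for 107 genes, 0.513% of those tested, of which 39 had a more positive and 68 a more negative change in SCS. Between JL drought and JL control, in fits of all 12 libraries, 0 genes were called by edgeR and 42 by DESeq2. In the edgeR fit 775 had an unadjusted p below 0.05 (3.71%). Of the 107 genes 93 changed by less than 1 on the log2 scale in JL and 63 had the opposite sign there. Choosing genes by the difference favours opposite signs, and the share over all tested genes was not counted. The lectin gene LOC8084563 had log2 fold changes of 7.98 in SCS and -1.86 in JL (JL mean 7.15 ± 4.32 CPM in drought and 26.1 ± 6.62 CPM in control, SD, n = 3 each), a difference of 9.84 (SE 0.97, adjusted p = 0.00602 by edgeR). Sucrose synthase 4 (LOC8082319) had log2 fold changes of 2.46 in SCS and -1.57 in JL (JL mean 16.6 ± 4.62 CPM in drought and 49.2 ± 10.7 CPM in control, SD, n = 3 each), a difference of 4.03 (SE 0.60, adjusted p = 0.0298 by edgeR). The transporter gene LOC8071382 had log2 fold changes of -4.47 in SCS and 0.80 in JL (JL mean 289.9 ± 76.5 CPM in drought and 166 ± 4.74 CPM in control, SD, n = 3 each), a difference of -5.27 (SE 0.39, adjusted p = 0.00121 by edgeR). For the aldolase gene LOC8073648 the values were log2 fold changes of -5.85 in SCS and -0.36 in JL (JL mean 1978 ± 678 CPM in drought and 2540.2 ± 212 CPM in control, SD, n = 3 each), a difference of -5.49 (SE 0.64, adjusted p = 0.00998 by edgeR). The lectin and sucrose synthase genes rose in SCS drought and were lower on average in JL drought than in JL control, and the transporter was the reverse. None of these JL changes was called. Without 1 library the number of such genes lay between 8 (without control 3) and 446 (without drought 3), and 8 of the 107 were called in all 6 fits, the lectin, the transporter and the aldolase genes among them.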

How the data were processed

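The authors deposited whole-number counts per gene and FPKM. Per the submitters' processing notes, the tools were StringTie 1.3.3b, HISAT2 2.0.4 and STAR, with no roles stated. The sources used here do not give how reads were counted, on which strand or on which build, so near-identical copies and overlapping or antisense genes are uncertain. Coordinates and product names are those of the deposited table. The deposited FPKM served only in alternative fits.

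Counts of all 12 libraries were filtered with filterByExpr (20873 of 33897 genes kept), TMM-scaled and fitted with 1 mean per group by edgeR 4.0.16 (R 4.3.3), quasi-likelihood F test, Benjamini-Hochberg adjustment over all tested genes. Totals were 15.04 to 18.36 M counts. SCS replicates differed beyond counting noise (chi-square per gene 67.7 to 276). Alternatives were RLE scaling, DESeq2 1.42.0, other filters, SCS libraries alone, limma 3.58.1 on log2(FPKM + pseudocount), voom with quality weights, a replicate block and fits without 1 library. The pipeline was tested on simulated counts with spread taken from these data and 50 genes changed at each size. It called 0% of genes changed 2-fold, 6% at 4-fold, 48% at 8-fold and 62% at 16-fold.

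The 87 lists are patterns on product names, 41 of them corrected from names for false matches. A list's summed share of counts covers all its members, tested or not. Members and lists were chosen with earlier results of these data known. Named genes were, per list, up to 4 called members with the largest changes that were called in all 6 fits without 1 library, did not overlap between groups and had a mean of 10 CPM or more in the higher one, or else the most abundant member. To these came the 12 most counted genes of each group, the 15 largest changes per direction, the 10 smallest adjusted p and the tissue markers. The text describes a part of the genes so named. A fold against a group with no count is a lower bound from a floor of 3 counts over the group, and against 1 to 3 counts a ratio is printed with an exact 95% binomial interval. Both cover counting error only.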

Additional observations from a re-analysis of the deposited data

Results flagged for a closer look

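For 107 genes the drought change in SCS and that in JL differed by edgeR's test of the difference itself (SCS change minus JL change, adjusted over all tested genes). Of these, 34 are named by the rule for genes, and the differences below are on the log2 scale, from fits in which genes with no or few counts in a group depend on the prior count. The 3 libraries of each group are all in the fit.

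Differences were positive, with a higher change in SCS, for 13 genes. Protective and storage-type genes with such a difference were the low-temperature-induced 65 kDa protein LOC8065192 (15.42), LEA protein 1 LOC8055903 (10.22), the lipid-transfer protein LOC8061116 (10.15) and the lectin R40C1 LOC8084563 (9.84). The chaperone genes LOC8073756, of the small class, and LOC8085292, of the HSP70 class, differed by 4.64 and 4.68. Metabolic genes were the NADP-malic enzyme copy LOC8075558 (10.10), the glucanase LOC8080486 (7.38), P5C synthase LOC110430201 (5.17), cytosolic phosphoglycerate kinase LOC110431217 (5.09), sucrose synthase 4 LOC8082319 (4.03) and ornithine aminotransferase LOC8062211 (2.30). Translation factor SUI1 LOC110432939 differed by 3.24. Their JL changes lay between -2.10 (LOC8055903) and 1.47 (LOC8065192).

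Differences were negative, with a lower change in SCS, for 21 genes. Transporters were the NRT1/PTR gene LOC110433327 (-8.69), the polyamine transporter LOC8080485 (-5.62), the arsB-named transporter LOC8071382 (-5.27) and proline transporter 1 LOC8078705 (-5.17). Proteases were SAG39 LOC8086230 (-8.00) and nepenthesin-1 LOC8074284 (-7.97). Regulators and receptors were the RADIALIS-like genes LOC8064723 (-7.23) and LOC8073158 (-5.54), wall-associated kinase LOC8076337 (-6.44), PERK4 LOC8084167 (-5.35), the nuclear factor Y subunit LOC110431645 (-5.29), heat stress factor LOC8082148 (-3.95) and CBL7 LOC8081639 (-2.87). Plastid and RNA-binding genes were RETICULATA-RELATED 4 LOC8074089 (-6.60), aldolase LOC8073648 (-5.49) and the pentatricopeptide repeat genes LOC8085697 (-4.19) and LOC8083663 (-2.70). Other enzymes were the oxidoreductase LOC8083891 (-9.42), the esterase-like gene LOC110431387 (-7.14), berberine bridge enzyme-like 22 LOC8061940 (-4.01) and the UDP-glycosyltransferase LOC8061544 (-3.24). Their JL changes lay between -1.15 (LOC8082148) and 1.93 (LOC8076337).

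Without control 3 these calls came to 8 of the 107 genes and without control 1 to 9, and without drought 3 all 107 kept the call. The genes called in all 6 fits without 1 library were LOC110433327, LOC8061940, LOC8064723, LOC8071382, LOC8073648, LOC8080485, LOC8081142 and LOC8084563.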

How the results depend on the processing

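None of the 151 called genes named by the rule changed direction under any alternative, whereas some named genes that were not called changed sign without 1 library. Many of the 151 were named only because they kept the call in all 6 fits without 1 library. For these genes the direction in those fits was fixed by the choice. RLE scaling, other filters and SCS libraries alone kept the counts of calls within 1.5 times of 854 higher and 1130 lower genes. With SCS libraries alone the split was 970 and 756. DESeq2 called 2025 higher, 2016 lower and 1329 with a difference between cultivars (107 by edgeR), and voom with library quality weights 3946, 4662 and 1912. On FPKM that difference was called for 263 genes with a pseudocount of 1 and 257 with 0.1. Without 1 SCS library the calls ran from 213 to 1175 higher, from 354 to 1292 lower and from 8 to 446 for the difference between cultivars. The fit with a replicate block called 572, 827 and 17. The labels do not say whether equal numbers pair the libraries. Deviations of same-numbered drought and control libraries correlated at 0.0525, -0.322 and -0.371. These values were not set against unlike-numbered libraries and cannot show whether the numbers pair them. The cause of these moves was not tested. Of the 151 called genes named by the rule, 0 lost the call under DESeq2, 15 with SCS libraries alone and 26 without control 1. Of all 1984 called genes, 99.3% were also called under DESeq2, 65.6% with SCS libraries alone and 41.9% without control 1.

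At a biological coefficient of variation of 63.3% and 3 libraries a group, 1892 of the 1984 called genes had changes of 2-fold or more, so a gene that is not called is not shown to be level. A single value of 3 against 3 libraries cannot go below an exact two-sided p of 0.1.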
